A study of Aquarana catesbeiana with 18 samples.

Results

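Liver of albino American bullfrogs (Aquarana catesbeiana) was compared with liver of wild-type American bullfrogs across all genes. The comparison uses 6 of the 18 RNA sequencing libraries of the study, replicates 1 to 3 of albino liver and replicates 1 to 3 of wild-type liver, chosen by the tissue and genotype labels alone. The other 12 libraries are skin and eyes of both genotypes and are used here to check which animal a liver library resembles and to follow genes that were near 0 in the liver of one genotype. The labels name no allele, treatment, age or sex for either group and do not say whether the replicates are separate animals, so the p-values measure the spread between these libraries, which may in part be technical. All libraries were made from total RNA of whole tissue extracted with TRIzol, so each liver library also holds RNA of blood and of the stroma. The liver libraries held between 38.3 and 39.2 M counts, and 18080 to 18561 of 24636 genes had a count.

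The liver makes most plasma proteins, stores vitamin A and glycogen, builds and burns fat, turns ammonia into urea and clears foreign compounds. Hepatocytes do most of this work, stellate cells hold the retinyl esters, and Kupffer cells, the resident macrophages, take up spent erythrocytes. Amphibian liver also holds pigmented macrophages and can change its stores with season and feeding. Albumin, the defining product of hepatocytes (LOC141108620), had 80318, 130688 and 66649 CPM in albino liver, against 76605, 82842 and 75382 CPM in wild-type liver, where CPM are counts per 1e6 of the library total scaled by TMM (trimmed mean of M values). These albumin levels overlapped between the groups and did not differ beyond the spread of the replicates (log2 difference albino minus wild-type 0.24 ± 0.28 with its SE, adjusted p = 0.661). In all sentences that follow, the values of a group stand in the order of replicates 1, 2 and 3, and an adjusted p is that of the quasi-likelihood test of edgeR, with Benjamini-Hochberg adjustment over the whole table of tested genes. Where calls were lost with 1 library left out, the brackets after that library give the number of calls lost, the highest adjusted p and its gene.

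Liver wild-type 3 went against its replicate number. Some genes were on in some bullfrogs and off in others, and 38 of them had the same state in skin and eyes of each number and differed between numbers, with on meaning at least 1 count per 1e6 and off at most 1 count. Liver albino 1, 2 and 3 matched the states of their own number at 34 of 34, 30 of 30 and 36 of 36 of the genes that could be read in liver. Liver wild-type 1 matched its own number at 31 of 31 and wild-type 2 at 31 of 32 genes. Liver wild-type 3 matched the number 2 animal at 31 of 32 genes (96.9%) and its own number at 16 of 32 (50%). Albino 2 and 3 also shared many states, since liver albino 2 matched number 3 at 29 of 30 genes.

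The immunoproteasome subunit PSMB8 and the peptide transporter TAP1, which prepare peptides for MHC class I, show the split. PSMB8 had 0 counts in both skin and eyes of wild-type 2, 3003 counts in skin and 1071 in eyes of wild-type 3, and 0 in both liver wild-type 2 and liver wild-type 3. TAP1 had 0 counts in skin and eyes of wild-type 2 and 300 and 236 counts in skin and eyes of wild-type 3. The MHC class II alpha-like gene LOC141107478 went the other way, with 12590.0 counts in skin and 2151 in eyes of wild-type 2 and 0 in both tissues of wild-type 3, and it had 9237 counts in liver wild-type 2 and 9016 in liver wild-type 3. Liver wild-type 2 and 3 were also the closest pair of liver libraries, with a median absolute log2 ratio of 0.213 across genes, against 0.312 to 0.389 between albino libraries and 0.365 and 0.390 between wild-type 1 and wild-type 2 or 3. Only 6 genes had at least 100 counts in one and at most 1 in the other, against 13 to 44 for pairs of albino libraries and 49 and 62 for wild-type 1 with wild-type 2 and 3. Eyes of wild-type 2 and 3 were also the closest pair of their tissue by median ratio, at 0.229, although 39 genes split them in this way. In skin the same numbers stood at 0.528 and were not the closest pair. Liver wild-type 2 and 3 still differed beyond counting noise (mean chi-square of 44.8 per gene), so they are not one library deposited under both numbers. Whether both came from 1 animal, or from relatives alike in these genes, cannot be told apart, and the results below rest on 3 libraries against 3. The adjusted p or the count of calls with wild-type 2 and 3 summed into 1 library, called summed, stands beside most called genes and lists.

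**Figure D1:**
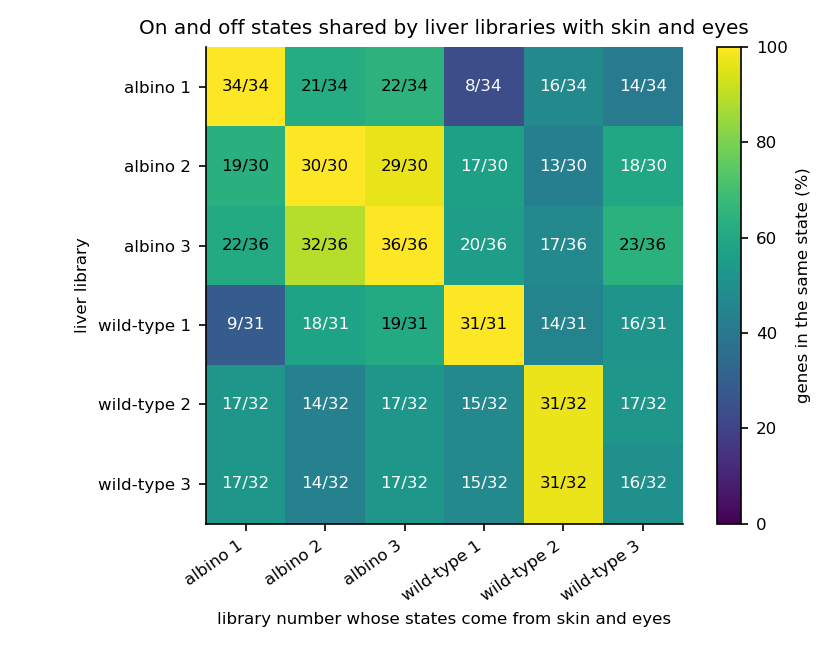
Agreement of each liver library (rows) with the on and off states that each replicate number showed in skin and eyes (columns), as genes agreeing over genes compared. Liver wild-type 3 agrees at 31 of 32 genes with number 2 of wild-type and at 16 of 32 with its own number.

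Of 14990 tested genes, 864 (5.76%) differed between albino and wild-type liver at an adjusted p under 0.05, 429 higher (2.86%) and 435 lower (2.9%) in albino liver. With wild-type 2 and 3 summed, 147 genes (0.954% of 15413 tested) differed, 65 higher (0.422%) and 82 lower (0.532%), and all 147 were among the 864, which makes 0.981% of the tested genes called in both fits. The median size of the called log2 differences was 1.43. For 28.7% of tested genes, all values of one genotype lay above all values of the other. Directions below are set against the all-gene median, which lay at 0.0012 with TMM scaling and at -0.28 with library totals. Counts of called members of a list are to be read beside the shares of 2.86% higher and 2.9% lower over all tested genes. With library totals, 20.6% of 1182 called genes were higher in albino liver, against 49.7% with TMM. Besides the genes named by rule, members of the 147 and of the metabolic lists were named for their role after their values had been seen. The largest rises and falls were named only where the groups did not overlap, so for those genes that trait was set by the rule.

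**Figure D2:**
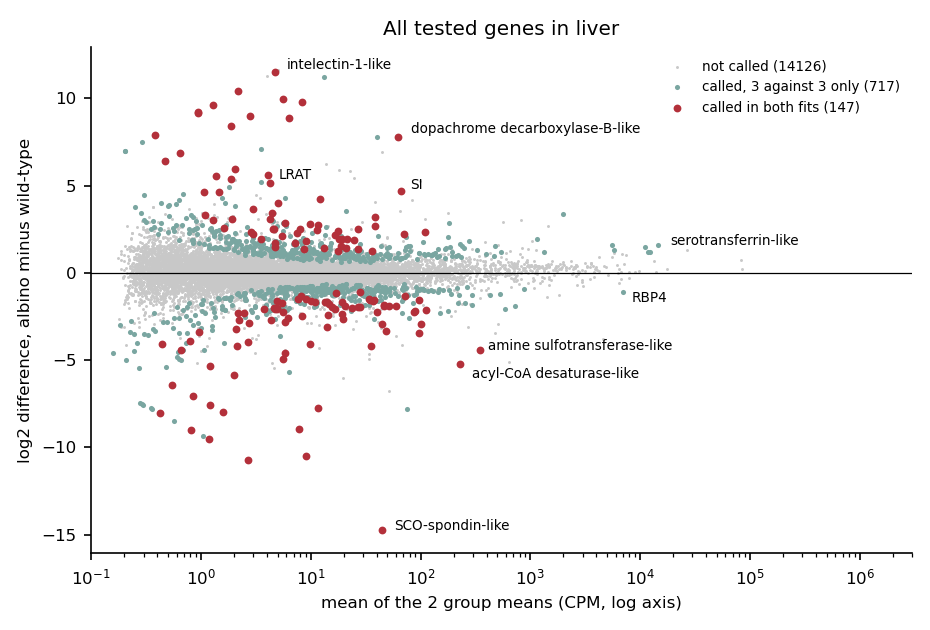
Log2 difference of albino minus wild-type liver against the mean level in CPM (log axis) for the 14990 tested genes. Red points mark the 147 genes called in both fits, green points the other 717 called genes, and the called plasma protein genes lie at the right edge.

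Fibrinogen, ficolin and alpha-2-macroglobulin products took a larger share of the counts in albino liver. The 10 genes of highest count in each library, which code for plasma proteins and for others such as COX1 and CPS1, held 27.2, 37.6 and 31.1% of the counts in albino liver, against 25.7, 25.9 and 26.2% in wild-type liver. Products of the alpha-2-macroglobulin family, large protease inhibitors of plasma, held 11.9, 19.4 and 14.9% of the counts in albino liver and 11.2, 9.68 and 9.54% in wild-type liver. Fibrinogen and ficolin products, which form clots and bind microbial sugars, held 4.14, 4.86 and 4.83% in albino liver and 3.06, 2.12 and 1.83% in wild-type liver. All 3 shares were higher in every albino library than in any wild-type library. Apolipoprotein products, the protein part of lipid particles, went the other way in share, with 1.06, 0.908 and 0.838% in albino liver and 1.29, 1.49 and 1.39% in wild-type liver. Member by member they moved little, with 0 of 13 tested called higher and 1 lower (median log2 difference -0.09, -0.32 with library totals). The coagulation and fibrinolysis list, which also holds fibrinogen chains, held 3.475, 4.189 and 4.11% in albino liver and 2.917, 2.375 and 2.042% in wild-type liver. The list of hepatokines and growth factors held a lower share, at 0.155, 0.167 and 0.124% in albino liver and 0.188, 0.297 and 0.251% in wild-type liver. Its members did not move with that share, since 13 of 20 tested had a positive log2 difference (median 0.21, -0.07 with library totals). Of its members, 1 was called higher and 1 lower. The shares of the coagulation and hepatokine lists did not overlap between the genotypes, and those of the secreted groups that follow did. Plasma carrier proteins held 11.0, 13.0 and 8.61% in albino liver and 12.1, 12.2 and 12.0% in wild-type liver, complement products 2.53, 2.59 and 2.26% in albino liver and 3.04, 2.50 and 1.83% in wild-type liver, and serpins 1.96, 2.42 and 2.06% in albino liver and 2.52, 1.84 and 1.61% in wild-type liver. These shares are parts of 1 total, and albino 2, which had the largest top share, also had the lowest scaling factor (0.792, against 0.982 and 0.955 in the other albino and 1.06 to 1.15 in the wild-type libraries).

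**Figure D3:**
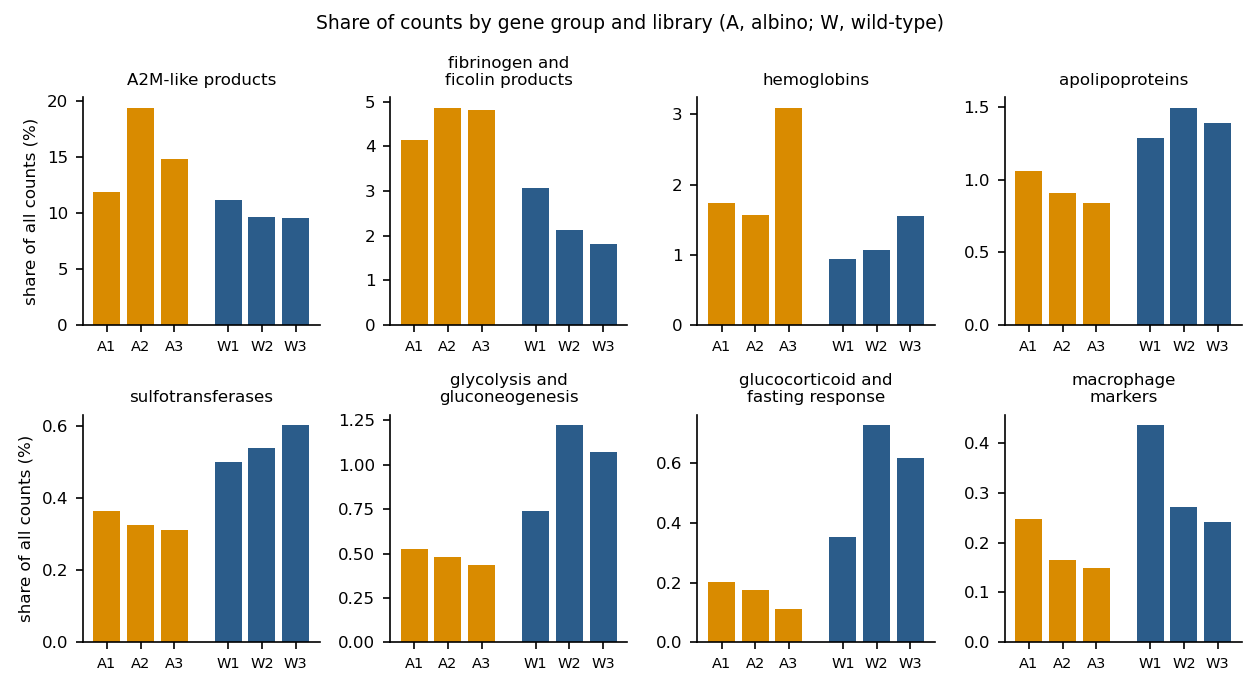
Percent of the counts of each liver library held by groups of genes, albino libraries left and wild-type libraries right, 1 bar per library. Fibrinogen and ficolin products lie between 4.14 and 4.86% in albino liver and between 1.83 and 3.06% in wild-type liver.

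All 3 chains of fibrinogen, the precursor of fibrin, rose. The gamma chain (FGG) rose by 1.49 ± 0.28 (adjusted p = 0.0211, summed 0.101) on the log2 scale, and the beta chain (FGB) had 13107, 20527 and 17099.7 CPM in albino liver, against 9504, 7226 and 5789.7 CPM in wild-type liver. FGB rose by 1.17 ± 0.27 (adjusted p = 0.0431, summed 0.163), and the alpha chain-like gene LOC141112541 by 1.21 ± 0.27 (adjusted p = 0.0392, summed 0.154). A serotransferrin-like gene (LOC141139453), of the family that carries iron in plasma, had 17405, 26161 and 22299.8 CPM in albino liver, against 8629.8, 7582 and 5381 CPM in wild-type liver. It rose by 1.61 ± 0.27 (adjusted p = 0.0152, summed 0.0745), with no overlap between the groups. Its neighbour in the family, the serotransferrin-A-like gene LOC141139454, rose by 1.67 ± 0.28 (adjusted p = 0.0152, summed 0.0513). The ovostatin-like protease inhibitor LOC141105847 rose by 1.62 ± 0.36 (adjusted p = 0.0366, summed 0.130), the ceruloplasmin-like copper oxidase LOC141139613 by 1.95 ± 0.43 (adjusted p = 0.0402, summed 0.141), and the fetuin-B-like gene LOC141139811 by 1.18 ± 0.26 (adjusted p = 0.0369, summed 0.143). The alpha-2-macroglobulin-like gene LOC141105649 had 1035, 6257 and 3574 CPM in albino liver, against 345, 486 and 236 CPM in wild-type liver. It rose by 3.35 ± 0.66 (adjusted p = 0.0367, summed 0.126), and albino 2 stood highest. In all, 6 of 13 tested fibrinogen and ficolin products rose and 0 fell (median 1.21, 0.92 with library totals), and 2 of 24 alpha-2-macroglobulin products rose (median 0.78, 0.49 with library totals), against a median of 0.0012 over all genes. None of these calls held in the summed fit. The counts of fibrinogen and ficolin calls were 5, 2 and 2 without albino 1, 2 and 3 and 7, 0 and 0 without wild-type 1, 2 and 3. For the secreted proteins given here, 0 of 9 calls held without each library in turn, and calls were lost without albino 1 (1, up to 0.0721, LOC141139613), albino 2 (9, up to 0.147, FGB), albino 3 (7, up to 0.119, LOC141139811), wild-type 1 (1, up to 0.0817, LOC141105649), wild-type 2 (9, up to 0.188, FGB) or wild-type 3 (9, up to 0.151, FGB).

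Other plasma proteins passed in both directions. The complement list, of the cascade that tags microbes, had 3 of 13 higher and 0 lower (median 0.56, 0.26 with library totals). None was called in the summed fit or with library totals. Of 33 tested complement products, matched by product text, 0 were higher and 0 lower (median 0.26, -0.007 with library totals). The collectins COLEC11 and COLEC10, which bind microbial sugars, rose by 0.74 ± 0.15 (adjusted p = 0.0289, summed 0.134) and 0.97 ± 0.23 (adjusted p = 0.0436, summed 0.134), and MASP1, a protease of the lectin pathway, rose by 0.92 ± 0.22 (adjusted p = 0.0475, summed 0.142). The complement rises numbered 3, 0 and 0 without albino 1, 2 and 3 and 2, 0 and 0 without wild-type 1, 2 and 3. Coagulation factor VIII (F8) rose by 0.94 ± 0.18 (adjusted p = 0.0223, summed 0.108), and the pentraxin PTX3, which binds microbes, rose by 1.72 ± 0.31 (adjusted p = 0.0206, summed 0.0819). The coagulation factor XIII B chain-like gene LOC141117115 had 10.2, 7.07 and 6.49 CPM in albino liver, against 0.282, 0.0979 and 0.0906 CPM in wild-type liver. It rose by 5.63 ± 0.44 (adjusted p = 0.000550, summed 0.00726), with no overlap between the groups. Retinol binding protein 4 (RBP4), which carries retinol from the liver to other tissues, had 5046, 4803 and 3686 CPM in albino liver, against 8566, 10645 and 9342 CPM in wild-type liver. RBP4 fell by 1.08 ± 0.22 (adjusted p = 0.0297, summed 0.117), with every albino library below every wild-type library. A hepcidin-1-like gene (LOC141110465), whose mammalian relative lowers iron export into plasma, had 137, 106 and 147 CPM in albino liver, against 225, 625 and 522 CPM in wild-type liver and fell by 1.81 ± 0.36 (adjusted p = 0.0291, summed 0.111). Apolipoprotein E (APOE) fell by 3.62 ± 0.60 (adjusted p = 0.0206, summed 0.0820) from a low level, at 1.5, 0.391 and 0.454 CPM in albino liver and 5.30, 13.8 and 10.3 CPM in wild-type liver. The apovitellenin-1-like gene LOC141129356, of a family that in birds sits on very low density lipoprotein, had 2.35, 4.04 and 2.59 CPM in albino liver, against 31.2, 22.9 and 22.1 CPM in wild-type liver. It fell by 3.09 ± 0.26 (adjusted p = 0.000815, summed 0.00587). Of 13 tested hepatocyte markers, 4 rose and 0 fell (median 0.53, 0.24 with library totals), all 4 named in other paragraphs. There were 3 rises with library totals and 0 in the summed fit. The rises numbered 4, 1 and 2 without albino 1, 2 and 3 and 4, 1 and 0 without wild-type 1, 2 and 3. Carbamoyl-phosphate synthase 1 and albumin, other markers of hepatocytes, did not pass, although the former did not overlap between the groups. Among the plasma protein genes of this paragraph, 2 of 10 calls held without each library in turn, and calls were lost without albino 1 (2, up to 0.0574, MASP1), albino 2 (8, up to 0.151, MASP1), albino 3 (7, up to 0.108, COLEC10), wild-type 1 (1, up to 0.0700, COLEC10), wild-type 2 (8, up to 0.162, MASP1) or wild-type 3 (8, up to 0.157, MASP1).

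Genes of vitamin A handling moved in both directions, and the largest of these changes held in both fits. The liver esterifies retinol for storage, releases it on RBP4, and oxidises it to retinoic acid, which enzymes of the CYP26 family break down. Lecithin retinol acyltransferase (LRAT), the esterifying enzyme of stellate cells, had 8.22, 9.81 and 7.00 CPM in albino liver, against 0.141, 0.269 and 0.272 CPM in wild-type liver. LRAT rose by 5.18 ± 0.32 (adjusted p = 0.000188, summed 0.00254), although its level stayed under 10 CPM. CYP26B1, which degrades retinoic acid, had 17.2, 20.7 and 20.6 CPM in albino liver, against 2.26, 3.82 and 4.57 CPM in wild-type liver and rose by 2.45 ± 0.26 (adjusted p = 0.00243, summed 0.0154). A retinol dehydrogenase 7-like gene (LOC141129457), of a family that oxidises retinol to retinal, had 153, 219 and 175 CPM in albino liver, against 36.1, 37.5 and 32.4 CPM in wild-type liver. It rose by 2.37 ± 0.21 (adjusted p = 0.000888, summed 0.0112), and a second one, LOC141127434, rose by 0.88 ± 0.18 (adjusted p = 0.0316, summed 0.141). The retinoic acid receptor responder protein 2-like gene LOC141145689, whose mammalian relative makes the secreted protein chemerin, had 27.4, 28.4 and 27.8 CPM in albino liver, against 9.25, 9.00 and 10.3 CPM in wild-type liver and rose by 1.55 ± 0.15 (adjusted p = 0.00144, summed 0.0143). For these genes all albino values lay above all wild-type values. Markers of stellate and fibroblast cells moved with them, with a list median of 0.68, and the part of these cells in the LRAT result was not tested. Of the rises, 4 of 5 calls held without each library in turn, and calls were lost without albino 1 (1, up to 0.0544, LOC141127434), albino 2 (1, up to 0.0683, LOC141127434), albino 3 (1, up to 0.0950, LOC141127434), wild-type 2 (1, up to 0.153, LOC141127434) or wild-type 3 (1, up to 0.136, LOC141127434).

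The genes of this pathway that fell were RBP4, above, several dehydrogenases and the oxygenase BCO1. Aldehyde dehydrogenase 1A1 (ALDH1A1), which makes retinoic acid from retinal, had 643, 660.0 and 512 CPM in albino liver, against 1118, 1338 and 1015 CPM in wild-type liver. It fell by 0.94 ± 0.21 (adjusted p = 0.0390, summed 0.121). An alcohol dehydrogenase 1-like gene (LOC141110080) fell by 4.41 ± 0.72 (adjusted p = 0.0147, summed 0.0337), with 2 counts in each albino library and 2.26, 1.03 and 0.521 CPM in wild-type liver. DHRS3, which turns retinal back into retinol, fell by 0.85 ± 0.19 (adjusted p = 0.0371, summed 0.138), and BCO1, which splits beta-carotene into retinal, fell by 1.02 ± 0.25 (adjusted p = 0.0490, summed 0.137). The KEGG list of retinol metabolism had 4 of 42 tested members higher and 4 lower, and the list median was 0.10. With library totals the split was 2 higher and 6 lower, with a median of -0.19. The rises numbered 6, 2 and 2 without albino 1, 2 and 3 and 9, 2 and 2 without wild-type 1, 2 and 3, and the falls 4, 1 and 0 without albino 1, 2 and 3 and 3, 0 and 1 without wild-type 1, 2 and 3. With wild-type 2 and 3 summed, 2 were higher and 1 lower. For the genes of this paragraph that fell, 0 of 4 calls held without each library in turn, and calls were lost without albino 1 (1, up to 0.0725, BCO1), albino 2 (4, up to 0.111, DHRS3), albino 3 (4, up to 0.145, BCO1), wild-type 1 (1, up to 0.0734, BCO1), wild-type 2 (4, up to 0.181, ALDH1A1) or wild-type 3 (3, up to 0.167, BCO1).

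**Figure D4:**
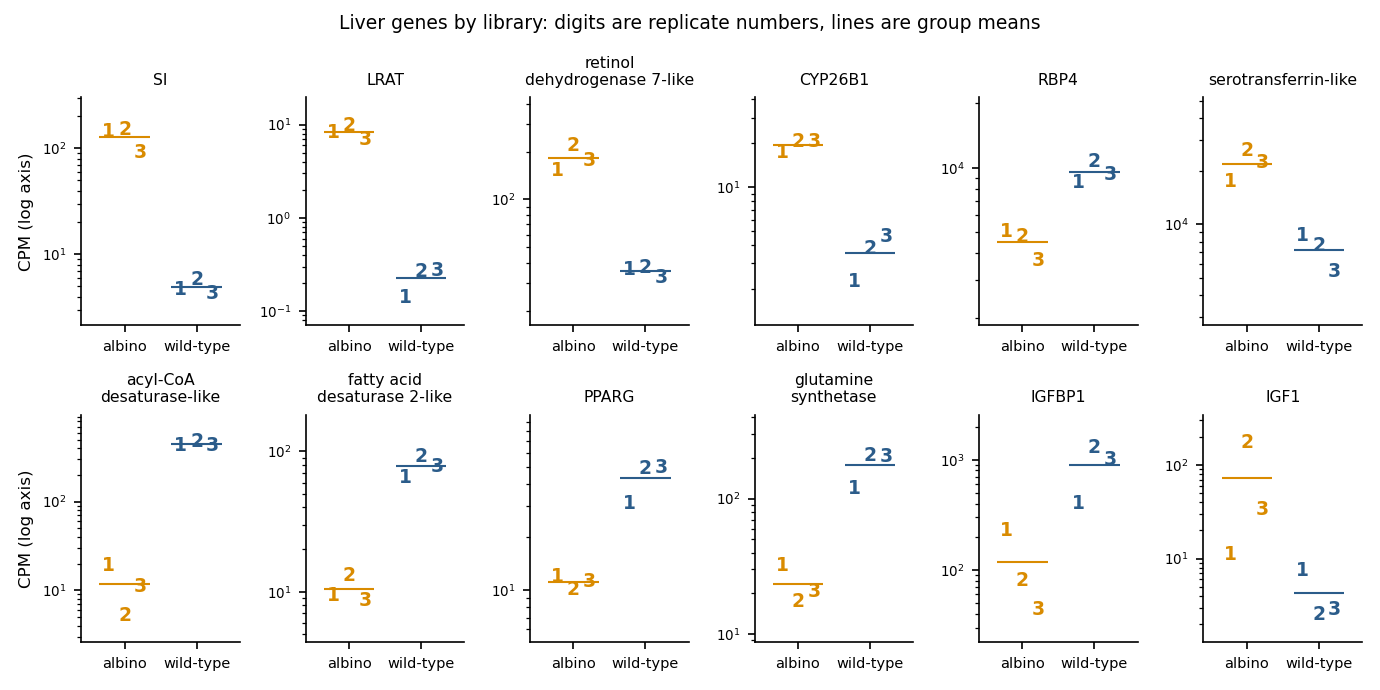
Level in CPM (log axis) of 12 genes in each liver library, albino libraries left and wild-type libraries right in each panel. The groups do not overlap in any panel drawn.

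Genes that desaturate fatty acids, build triglyceride or drive fat storage were lower in albino liver where they passed. Desaturases put double bonds into fatty acids, lipins and acyltransferases build triglyceride, and PPARG is the receptor that drives fat storage genes in mammals. The acyl-CoA desaturase-like gene LOC141106129 had 18.9, 5.18 and 11.1 CPM in albino liver, against 425, 477 and 426 CPM in wild-type liver. It fell by 5.24 ± 0.48 (adjusted p = 0.00160, summed 0.0137), the largest fall among called genes with a mean over 100 CPM. The fatty acid desaturase 2-like gene LOC141112132 had 9.44, 13.1 and 8.71 CPM in albino liver, against 65.2, 91.4 and 78.4 CPM in wild-type liver and fell by 2.91 ± 0.23 (adjusted p = 0.000550, summed 0.00507). A second polyunsaturated desaturase-like gene, LOC141112134, fell by 2.58 ± 0.57 (adjusted p = 0.0499, summed 0.154), with albino 1 at the top of its group. PPARG had 12.0, 10.1 and 11.3 CPM in albino liver, against 30.9, 48.8 and 49.3 CPM in wild-type liver. It fell by 1.95 ± 0.22 (adjusted p = 0.00282, summed 0.0183), and no albino library reached the lowest wild-type library. The mitochondrial citrate carrier SLC25A1, which brings citrate to the cytosol for fatty acid synthesis, had 55.1, 45.4 and 50.5 CPM in albino liver, against 138, 163 and 134 CPM in wild-type liver and fell by 1.53 ± 0.18 (adjusted p = 0.00397, summed 0.0215). For these lipid genes, 4 of 5 calls held without each library in turn, and calls were lost without albino 2 (1, up to 0.156, LOC141112134), albino 3 (1, up to 0.0597, LOC141112134), wild-type 1 (1, up to 0.0984, LOC141112134), wild-type 2 (1, up to 0.161, LOC141112134) or wild-type 3 (1, up to 0.143, LOC141112134).

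Triglyceride enzymes of the lists were lower as well where they passed, and phospholipid enzymes passed in both directions. Lipin 1 (LPIN1) had 10.6, 9.81 and 10.9 CPM in albino liver, against 26.2, 22.2 and 21.5 CPM in wild-type liver and fell by 1.16 ± 0.16 (adjusted p = 0.00684, summed 0.0385), while LPIN2 fell by 0.95 ± 0.17 (adjusted p = 0.0181, summed 0.0795). MOGAT3, which adds an acyl chain to monoacylglycerol, fell by 1.27 ± 0.18 (adjusted p = 0.00886, summed 0.0506), and the fatty acid activating enzyme ACSL5 fell by 1.41 ± 0.28 (adjusted p = 0.0270, summed 0.0820). Some lipases fell as well. Lipoprotein lipase (LPL), which frees fatty acids from plasma lipoproteins, fell by 1.54 ± 0.31 (adjusted p = 0.0285, summed 0.0841), PNPLA2, which opens stored triglyceride, fell by 0.91 ± 0.17 (adjusted p = 0.0206, summed 0.0991), and the patatin-like LOC141132936 fell by 1.96 ± 0.27 (adjusted p = 0.00695, summed 0.0340). A phospholipase A2-like gene (LOC141101772) had 0.290, 0.293 and 0.775 CPM in albino liver, against 15.6, 8.34 and 9.30 CPM in wild-type liver and fell by 4.59 ± 0.45 (adjusted p = 0.00182, summed 0.0112). CHPT1 and PEMT, which make phosphatidylcholine by its 2 routes, fell, with log2 differences of -1.19 ± 0.20 (adjusted p = 0.0171, summed 0.0772) and -1.99 ± 0.40 (adjusted p = 0.0320, summed 0.117). The phospholipases PLD1 and PLD2, which free phosphatidic acid, rose by 1.26 ± 0.20 (adjusted p = 0.0122, summed 0.0711) and 1.32 ± 0.22 (adjusted p = 0.0147, summed 0.0681). A cytosolic phospholipase A2 gamma-like gene (LOC141123342) had 17, 23 and 20 counts in albino liver and 1 in each wild-type liver (ratio 24.1, 95% counting interval 7.84 to 119.9, adjusted p = 0.00971, summed 0.0575). The KEGG list of glycerophospholipid metabolism had 4 of 89 higher and 10 lower, with 0 higher and 2 lower in the summed fit and 4 higher and 18 lower with library totals. Its rises numbered 8, 0 and 3 without albino 1, 2 and 3 and 7, 0 and 0 without wild-type 1, 2 and 3, and its falls 10, 3 and 2 without albino 1, 2 and 3 and 14, 2 and 2 without wild-type 1, 2 and 3. The KEGG list of ether lipid metabolism, which shares members with it, had 5 of 40 higher and 3 lower, with 0 higher and 1 lower in the summed fit and 5 higher and 5 lower with library totals. The peroxisomal thiolase ACAA1 fell by 1.02 ± 0.20 (adjusted p = 0.0261, summed 0.0991). INSIG1, which holds back sterol synthesis in the endoplasmic reticulum, had 84.9, 34.6 and 80.4 CPM in albino liver, against 10.8, 10.7 and 9.64 CPM in wild-type liver. It rose by 2.68 ± 0.33 (adjusted p = 0.00533, summed 0.0464), with albino 2 lowest of its group. The liver type fatty acid-binding proteins LOC141129948 and LOC141128285 rose as well, by 2.71 ± 0.39 (adjusted p = 0.00940, summed 0.0515) and 2.88 ± 0.50 (adjusted p = 0.0210, summed 0.101), and stood under 2 CPM in each wild-type library. Of the genes of this paragraph, 4 of 17 calls held without each library in turn, and calls were lost without albino 1 (1, up to 0.0611, PEMT), albino 2 (9, up to 0.0963, PEMT), albino 3 (8, up to 0.113, PEMT), wild-type 2 (12, up to 0.125, PEMT) or wild-type 3 (12, up to 0.115, PEMT).

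By list, 4 of 22 lipogenesis and triglyceride genes fell and 0 rose (median -0.33, -0.62 with library totals). The 4 were LPIN1, LPIN2 and the lipases PNPLA2 and LPL. Of the KEGG list of unsaturated fatty acid synthesis, 6 of 29 fell and 0 rose (median -0.27), and of the PPAR signaling list 8 of 62 fell and 1 rose (median -0.28), with 0 higher and 11 lower with library totals. In the summed fit the falls were 1, 2 and 4 for these 3 lists. The KEGG list of fatty acid biosynthesis did not move with them. It had 0 of 18 higher and 1 lower, the activating enzyme ACSL5, and 11 members had a positive log2 difference (median 0.19, -0.10 with library totals). Of 24 genes of cholesterol synthesis and uptake, INSIG1 alone was called (1 higher and 1 lower with library totals), and the list median was 0.06 (-0.24 with library totals). Fatty acid oxidation and ketogenesis had 2 of 31 higher and 1 lower (median -0.20), beside 2.86% higher and 2.9% lower over all tested genes. The 2 higher members were the fatty acid-binding proteins LOC141129948 and LOC141128285, and the lower one was the thiolase ACAA1. The list had 0 higher and 0 lower in the summed fit and 2 higher and 3 lower with library totals. The count of falls in the PPAR signaling list was 13, 4 and 4 without albino 1, 2 and 3 and 10, 3 and 4 without wild-type 1, 2 and 3. The count of falls in the unsaturated fatty acid list was 6, 2 and 3 without albino 1, 2 and 3 and 6, 2 and 2 without wild-type 1, 2 and 3.

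Carbohydrate genes split between a few strong rises and falls of regulators. Sucrase-isomaltase (SI), which splits sugars at the gut surface in mammals, had 144, 151 and 91.7 CPM in albino liver, against 4.68, 5.82 and 4.3 CPM in wild-type liver. SI rose by 4.71 ± 0.27 (adjusted p = 0.000141, summed 0.00210), and each albino library was at least 15 times above the highest wild-type library. Sorbitol dehydrogenase (SORD), which makes fructose from sorbitol, had 31.6, 29.8 and 30.8 CPM in albino liver, against 8.17, 12.7 and 13.3 CPM in wild-type liver and rose by 1.43 ± 0.21 (adjusted p = 0.00883, summed 0.0420). Phosphoglucomutase 1 (PGM1) and UGP2, which lead glucose phosphate towards glycogen, rose by 1.43 ± 0.26 (adjusted p = 0.0191, summed 0.0916) and 1.09 ± 0.22 (adjusted p = 0.0299, summed 0.135). PPP1R3B, the subunit that brings protein phosphatase 1 to glycogen, had 1.45, 1.6 and 1.28 CPM in albino liver, against 6.61, 6.85 and 4.64 CPM in wild-type liver. It fell by 2.06 ± 0.25 (adjusted p = 0.00397, summed 0.0176). PFKFB1 and PFKFB3, which set the level of the main activator of glycolysis, fell, with log2 differences of -1 ± 0.19 (adjusted p = 0.0217, summed 0.0836) and -1.28 ± 0.20 (adjusted p = 0.0119, summed 0.0506). The glucokinase regulator GCKR fell by 1.28 ± 0.28 (adjusted p = 0.0365, summed 0.129), the glucose phosphate transporter SLC37A4 fell by 1.04 ± 0.24 (adjusted p = 0.0443, summed 0.127), and PDP2, which switches pyruvate dehydrogenase on, fell by 2.07 ± 0.30 (adjusted p = 0.00914, summed 0.0306). For these carbohydrate genes, 4 of 10 calls held without each library in turn, and calls were lost without albino 1 (1, up to 0.0553, SLC37A4), albino 2 (5, up to 0.126, GCKR), albino 3 (5, up to 0.147, SLC37A4), wild-type 2 (6, up to 0.169, SLC37A4) or wild-type 3 (5, up to 0.127, UGP2).

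The gluconeogenic enzymes PCK1 and G6PC1 had wide spreads. PCK1, which commits carbon to glucose synthesis, had 102, 6.68 and 0.481 CPM in albino liver, against 344, 1922 and 1472 CPM in wild-type liver and did not pass (-5.10 ± 2.15, adjusted p = 0.262). G6PC1, which releases free glucose, had 1253, 1550.4 and 414 CPM in albino liver, against 1949, 3470.0 and 2399 CPM in wild-type liver and did not pass (-1.28 ± 0.47, adjusted p = 0.156). For both genes all albino values lay below all wild-type values, and albino 1 stood closest to the wild-type range for PCK1. The list of glycolysis and gluconeogenesis had 4 of 30 lower and 0 higher, with a median of 0.06 (-0.22 with library totals) and no call in the summed fit. Its share of the counts was 0.525, 0.480 and 0.434% in albino liver and 0.741, 1.22 and 1.07% in wild-type liver. Its falls numbered 4, 1 and 1 without albino 1, 2 and 3 and 5, 0 and 1 without wild-type 1, 2 and 3. Glycogen metabolism had 2 of 18 higher and 1 lower, with 0 higher and 1 lower in the summed fit and 1 higher and 2 lower with library totals.

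The glucocorticoid and fasting list moved further to one side than the clock list described below. Many of these genes are switched by glucagon, glucocorticoids or low insulin in mammalian liver, and the list also holds a thyroid hormone receptor. Of 26 tested members, 8 fell and 0 rose, and 4 had a positive log2 difference (median -0.77, -1.06 with library totals). The share of counts in this list was 0.200, 0.177 and 0.111% in albino liver and 0.351, 0.725 and 0.615% in wild-type liver. Its medians by library, as log2 deviations from the mean of the 6 libraries, were -0.27, -0.35 and -0.49 in albino liver. They were -0.04, 0.62 and 0.61 in wild-type liver, so wild-type 1 lay closer to the albino libraries than to wild-type 2 and 3. KLF10, a repressor that follows glucose and the clock, had 26.9, 13.9 and 17.6 CPM in albino liver, against 95.3, 63.3 and 61.3 CPM in wild-type liver and fell by 1.91 ± 0.29 (adjusted p = 0.0105, summed 0.0444). The thyroid hormone receptor beta (THRB) had 0.949, 0.554 and 0.962 CPM in albino liver, against 3.25, 3.82 and 5.21 CPM in wild-type liver. THRB fell by 2.30 ± 0.32 (adjusted p = 0.00794, summed 0.0449). Insulin receptor substrate 1 (IRS1) fell by 0.96 ± 0.21 (adjusted p = 0.0331, summed 0.0903), FOXO1, which insulin keeps out of the nucleus, fell by 0.89 ± 0.21 (adjusted p = 0.0449, summed 0.143), and CREB3L3, which hepatocytes activate on fasting in mice, fell by 0.94 ± 0.21 (adjusted p = 0.0369, summed 0.143). ATF5, a stress factor outside this list, had 305, 172 and 197 CPM in albino liver, against 529.6, 1217 and 1126 CPM in wild-type liver and fell by 2.09 ± 0.36 (adjusted p = 0.0190, summed 0.0820). KLF10 and THRB were the 2 members that held in the summed fit. The falls numbered 6, 2 and 1 without albino 1, 2 and 3 and 14, 2 and 2 without wild-type 1, 2 and 3. Insulin-like growth factor binding protein 1 (IGFBP1), which fasting raises in mammals, had 229.7, 80.3 and 44.0 CPM in albino liver, against 401, 1285 and 1016 CPM in wild-type liver and did not pass (-2.93 ± 0.75, adjusted p = 0.0794). Insulin-like growth factor 1 (IGF1), the growth hormone target, had 11.2, 173 and 33.7 CPM in albino liver, against 7.44, 2.54 and 2.88 CPM in wild-type liver and did not pass (4.08 ± 1.26, adjusted p = 0.151). Neither gene overlapped between the groups, and albino 2 stood apart for IGF1. Of the genes of this paragraph, 1 of 6 calls held without each library in turn, and calls were lost without albino 2 (4, up to 0.126, FOXO1), albino 3 (5, up to 0.132, FOXO1), wild-type 2 (4, up to 0.180, FOXO1) or wild-type 3 (4, up to 0.136, CREB3L3).

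Clock genes fell where they passed. The labels give no time of day of sampling. BHLHE41, a repressor in the clock loop, had 17.5, 18.0 and 17.4 CPM in albino liver, against 48.8, 52.5 and 53.8 CPM in wild-type liver. It fell by 1.55 ± 0.15 (adjusted p = 0.00144, summed 0.0133), with groups that varied little. Its relative BHLHE40 fell by 1.18 ± 0.21 (adjusted p = 0.0189, summed 0.0801), and DBP, an output factor of the clock, fell by 1.04 ± 0.25 (adjusted p = 0.0482, summed 0.143). Of 17 clock genes, 4 fell and 0 rose (median -0.18, -0.50 with library totals), with 1 in the summed fit. The falls numbered 4, 2 and 2 without albino 1, 2 and 3 and 6, 1 and 1 without wild-type 1, 2 and 3. Of the clock genes, 1 of 3 calls held without each library in turn, and calls were lost without albino 2 (1, up to 0.123, DBP), albino 3 (1, up to 0.0950, DBP), wild-type 1 (1, up to 0.0667, DBP), wild-type 2 (2, up to 0.174, DBP) or wild-type 3 (2, up to 0.124, DBP).

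Amino acid genes changed in both directions. PHGDH, the first enzyme of serine synthesis, had 7.51, 6.29 and 7.72 CPM in albino liver, against 2.78, 2.10 and 1.81 CPM in wild-type liver. PHGDH rose by 1.68 ± 0.23 (adjusted p = 0.00687, summed 0.0464). Dimethylglycine dehydrogenase (DMGDH), a step from choline to glycine, had 98.6, 188 and 206 CPM in albino liver, against 69.6, 42.4 and 33.1 CPM in wild-type liver and rose by 1.76 ± 0.36 (adjusted p = 0.0320, summed 0.129). GRHPR, which clears glyoxylate, rose by 0.86 ± 0.17 (adjusted p = 0.0264, summed 0.116), and CDO1, which oxidises cysteine on the way to taurine, by 0.88 ± 0.20 (adjusted p = 0.0380, summed 0.150). MTHFD1, which moves one-carbon units on folate, fell by 0.98 ± 0.18 (adjusted p = 0.0210, summed 0.0819). The KEGG list of glycine, serine and threonine metabolism had 7 of 39 higher and 1 lower (median 0.08), with 1 higher and 0 lower in the summed fit. With library totals, 2 were higher and 3 lower (median -0.21), so the direction of the list depends on the scaling. The rises numbered 10, 1 and 2 without albino 1, 2 and 3 and 5, 0 and 1 without wild-type 1, 2 and 3. Of the enzymes that break down aromatic amino acids, 2 of 18 rose and 0 fell (median 0.44, 0.17 with library totals), with none in the summed fit. The last enzyme of tyrosine breakdown, FAH, rose by 1.05 ± 0.18 (adjusted p = 0.0169, summed 0.0836), and HAAO, of the kynurenine route, by 1.17 ± 0.26 (adjusted p = 0.0375, summed 0.131). Tyrosine aminotransferase (TAT) overlapped between the groups. Of the amino acid genes, 0 of 7 calls held without each library in turn, and calls were lost without albino 2 (6, up to 0.113, HAAO), albino 3 (5, up to 0.124, CDO1), wild-type 1 (1, up to 0.0613, HAAO), wild-type 2 (7, up to 0.166, CDO1) or wild-type 3 (6, up to 0.151, CDO1).

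Genes of nitrogen handling passed in both directions. Glutamine synthetase (LOC141108265), which binds ammonia into glutamine around the central veins of mammalian liver, had 32.3, 17.3 and 20.5 CPM in albino liver, against 119.7, 209 and 205 CPM in wild-type liver. It fell by 2.93 ± 0.32 (adjusted p = 0.00282, summed 0.0180), with every wild-type library at least 3 times above every albino library. PYCR1, which makes proline, had 1.69, 0.685 and 1.04 CPM in albino liver, against 6.33, 8.51 and 7.97 CPM in wild-type liver and fell by 2.73 ± 0.33 (adjusted p = 0.00413, summed 0.0285). NIT2, which clears a by-product of glutamine transamination, had 22.8, 39.1 and 23.3 CPM in albino liver, against 8.14, 6.26 and 7.97 CPM in wild-type liver and rose by 1.93 ± 0.25 (adjusted p = 0.00522, summed 0.0386). CPS1, the entry of ammonia into the urea cycle, had 14804, 18115 and 16184 CPM in albino liver, against 9798, 10885 and 9889.6 CPM in wild-type liver and did not pass (0.68 ± 0.20, adjusted p = 0.0894). Of 18 urea cycle and nitrogen genes, glutamine synthetase was the only one called, and PYCR1 and NIT2 stand outside that list. Of the nitrogen genes, 3 of 3 calls held without each library in turn.

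Genes that clear foreign compounds changed in both directions, member by member. Cytochrome P450 enzymes oxidise drugs, steroids and fatty acids, and sulfotransferases add a sulfate that helps to excrete them. Of 108 tested P450 products, 11 rose and 9 fell, and 3 and 3 did so in the summed fit. With library totals 10 rose and 17 fell. The P450 rises numbered 13, 3 and 4 without albino 1, 2 and 3 and 15, 5 and 3 without wild-type 1, 2 and 3, and the falls 10, 6 and 5 without albino 1, 2 and 3 and 14, 3 and 4 without wild-type 1, 2 and 3. The 2F3-like gene LOC141107663 had 3.66, 4.69 and 2.54 CPM in albino liver, against 87.6, 65.8 and 46.0 CPM in wild-type liver. It fell by 4.2 ± 0.33 (adjusted p = 0.000598, summed 0.00273). The 2C8-like genes LOC141107693 and LOC141107696 fell, with log2 differences of -2.19 ± 0.26 (adjusted p = 0.00413, summed 0.0235) and -2.14 ± 0.27 (adjusted p = 0.00520, summed 0.0215), the first of them with 31.7, 32.1 and 31.8 CPM in albino liver and 91.8, 167 and 178 CPM in wild-type liver. The 2K1-like gene LOC141148936 had 348, 387 and 195 CPM in albino liver, against 857, 1429 and 1142 CPM in wild-type liver and fell by 1.88 ± 0.31 (adjusted p = 0.0153, summed 0.0706). Next to it in number, the 2K4-like gene LOC141148935 rose by 2.77 ± 0.33 (adjusted p = 0.00431, summed 0.0315), and the 2H2-like gene LOC141107713 rose by 1.35 ± 0.18 (adjusted p = 0.00662, summed 0.0224). The 2G1-like gene LOC141108910 had 221, 311 and 196 CPM in albino liver, against 113, 86.9 and 77.3 CPM in wild-type liver and rose by 1.39 ± 0.25 (adjusted p = 0.0191, summed 0.0903). Their electron donor POR fell by 0.81 ± 0.18 (adjusted p = 0.0389, summed 0.130), and the aryl hydrocarbon receptor (AHR), which switches P450 genes on, rose by 1.14 ± 0.22 (adjusted p = 0.0238, summed 0.109). Copies within these families may be near-identical in places, which was not examined. The sources used here do not give how reads matching more than 1 copy were counted. For the P450 genes, POR and AHR, 5 of 9 calls held without each library in turn, and calls were lost without albino 2 (3, up to 0.126, POR), albino 3 (2, up to 0.106, POR), wild-type 2 (4, up to 0.178, POR) or wild-type 3 (4, up to 0.112, AHR).

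Sulfotransferases fell more often. Of 44 tested products, 7 fell and 3 rose, and 5 falls and 0 rises were called in the summed fit (10 and 2 with library totals). Together the family held 0.366, 0.327 and 0.313% of the counts in albino liver and 0.5, 0.539 and 0.603% in wild-type liver, with no overlap. The amine sulfotransferase-like gene LOC141140216 had 36.9, 41.6 and 15.2 CPM in albino liver, against 582, 701 and 700.0 CPM in wild-type liver. It fell by 4.40 ± 0.40 (adjusted p = 0.00128, summed 0.0111), with no overlap between the groups. The 6B1-like gene LOC141140517 fell by 2.48 ± 0.21 (adjusted p = 0.000885, summed 0.00612), the 1C1-like gene LOC141148504 fell by 1.31 ± 0.17 (adjusted p = 0.00597, summed 0.0378) and the 1B1-like gene LOC141148488 fell by 1.65 ± 0.24 (adjusted p = 0.00881, summed 0.0285). A further pair moved apart although they share a product name, since the 6B1-like genes LOC141140516 and LOC141140515 stood at -2.66 ± 0.39 (adjusted p = 0.0119, summed 0.0575) and 1.09 ± 0.18 (adjusted p = 0.0140, summed 0.0801). Other enzymes of this kind changed too. Mitochondrial aldehyde dehydrogenase (ALDH2), which clears acetaldehyde, had 569, 794 and 766 CPM in albino liver, against 256, 254 and 228 CPM in wild-type liver and rose by 1.53 ± 0.21 (adjusted p = 0.00695, summed 0.0506). The aldo-keto reductase 1C3-like gene LOC141132848 rose by 5.35 ± 0.58 (adjusted p = 0.00263, summed 0.0224), with 3 to 4 counts in each wild-type library. A glutathione S-transferase P-like gene (LOC141106354) had 13.4, 19.9 and 34.9 CPM in albino liver, against 97.7, 119 and 120.0 CPM in wild-type liver and fell by 2.30 ± 0.34 (adjusted p = 0.0105, summed 0.0573). The sulfotransferase falls numbered 8, 6 and 5 without albino 1, 2 and 3 and 8, 5 and 5 without wild-type 1, 2 and 3. Among these enzymes, 5 of 9 calls held without each library in turn, and calls were lost without albino 2 (2, up to 0.0584, LOC141106354), albino 3 (2, up to 0.0563, LOC141140516), wild-type 2 (4, up to 0.0939, LOC141140515) or wild-type 3 (3, up to 0.0750, LOC141140515).

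Of the antioxidant list, 3 of 28 rose and 1 fell, with 2 higher and 0 lower in the summed fit and 2 higher and 2 lower with library totals. Its median of 0.21 turned to -0.07 with library totals. GPX3, the plasma glutathione peroxidase, had 10.3, 11.6 and 15.1 CPM in albino liver, against 2.47, 2.13 and 3.12 CPM in wild-type liver. GPX3 rose by 2.26 ± 0.23 (adjusted p = 0.00180, summed 0.0118). SOD3, the extracellular superoxide dismutase, had 4.69, 7.53 and 10.8 CPM in albino liver, against 1.39, 0.881 and 1.72 CPM in wild-type liver and rose by 2.52 ± 0.37 (adjusted p = 0.00928, summed 0.0385). PRDX2, a peroxide scavenger abundant in erythrocytes, rose by 1.05 ± 0.18 (adjusted p = 0.0178, summed 0.0757). SRXN1, which repairs peroxiredoxins, fell by 1.14 ± 0.22 (adjusted p = 0.0224, summed 0.102), and MSRB2, outside the list, which repairs oxidised methionine in mitochondria, fell by 1.95 ± 0.24 (adjusted p = 0.00479, summed 0.0281). In the heme and iron list, 2 of 22 rose and 1 fell, beside 2.86% higher and 2.9% lower over all tested genes. None was called in the summed fit, and 0 were higher and 1 lower with library totals. UROD and PPOX, late steps of heme synthesis, rose by 0.81 ± 0.20 (adjusted p = 0.0498, summed 0.167) and 1.38 ± 0.32 (adjusted p = 0.0449, summed 0.151), and the heme-degrading HMOX1 fell by 1.12 ± 0.21 (adjusted p = 0.0223, summed 0.0908). A heme-binding protein 2-like gene (LOC141140610) had 12.7, 21.4 and 35.6 CPM in albino liver, against 1.39, 1.15 and 1.2 CPM in wild-type liver and rose by 4.22 ± 0.39 (adjusted p = 0.00160, summed 0.0186). For the antioxidant and heme genes, 3 of 9 calls held without each library in turn, and calls were lost without albino 1 (1, up to 0.0600, PPOX), albino 2 (4, up to 0.152, UROD), albino 3 (5, up to 0.148, UROD), wild-type 1 (1, up to 0.0543, UROD), wild-type 2 (6, up to 0.178, PPOX) or wild-type 3 (5, up to 0.188, UROD).

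Some markers of blood and stroma differed between the genotypes. In bulk tissue, fewer cells of a type and less RNA per cell cannot be told apart. Hemoglobin products held 1.74, 1.57 and 3.09% of the counts in albino liver and 0.937, 1.07 and 1.55% in wild-type liver, and albino 2 and wild-type 3 were nearly level. Hemoglobin alpha-C (LOC141147716) had 6779.7, 6857 and 11479 CPM in albino liver, against 2574, 3302 and 4105 CPM in wild-type liver and rose by 1.33 ± 0.29 (adjusted p = 0.0363, summed 0.117). With library totals 0 of 4 tested hemoglobin products were called. Of 18 erythrocyte markers, 3 rose and 0 fell (median 0.83, 0.55 with library totals), with 0 in the summed fit and 1 higher with library totals. The erythrocyte rises numbered 6, 1 and 1 without albino 1, 2 and 3 and 1, 0 and 0 without wild-type 1, 2 and 3, and 1 marker fell without wild-type 1. The anion exchanger of red cells, SLC4A1, had 72.3, 54.3 and 104 CPM in albino liver, against 24.8, 23.5 and 33.7 CPM in wild-type liver. It rose by 1.49 ± 0.27 (adjusted p = 0.0191, summed 0.0757), and RHAG, its partner in the membrane, did not pass (0.85 ± 0.28, adjusted p = 0.120). Amphibian thrombocytes are nucleated cells, and their markers had 2 of 13 higher (median 0.45, 0.17 with library totals), with 1 in the summed fit and 1 with library totals. The thrombocyte rises numbered 3, 2 and 1 without albino 1, 2 and 3 and 2, 0 and 1 without wild-type 1, 2 and 3, and 1 marker fell without albino 1. Integrin beta 3 (ITGB3), of the fibrinogen receptor, had 26.4, 25.1 and 23.0 CPM in albino liver, against 11.9, 10.2 and 9.42 CPM in wild-type liver. ITGB3 rose by 1.24 ± 0.16 (adjusted p = 0.00567, summed 0.0479), and GP1BA, which binds von Willebrand factor, by 1.10 ± 0.24 (adjusted p = 0.0342, summed 0.134). The part of blood content in the heme and PRDX2 results was not tested. For the blood genes, 0 of 4 calls held without each library in turn, and calls were lost without albino 1 (1, up to 0.0608, GP1BA), albino 2 (1, up to 0.0783, LOC141147716), albino 3 (3, up to 0.110, GP1BA), wild-type 1 (1, up to 0.0605, LOC141147716), wild-type 2 (4, up to 0.162, LOC141147716) or wild-type 3 (3, up to 0.132, GP1BA).

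Stellate, smooth muscle and fibroblast markers had 7 of 21 higher and 0 lower (median 0.68, 0.39 with library totals), with 2 rises in the summed fit and 3 with library totals. LRAT is one of them, and its rise was larger than that of any other member of this list. Receptor PDGFRA, of fibroblasts, had 16.3, 17.8 and 23.5 CPM in albino liver, against 6.17, 7.49 and 7.45 CPM in wild-type liver and rose by 1.45 ± 0.20 (adjusted p = 0.00662, summed 0.0449). Vimentin (VIM) rose by 0.99 ± 0.23 (adjusted p = 0.0443, summed 0.145), TCF21 by 0.82 ± 0.19 (adjusted p = 0.0468, summed 0.144) and transgelin (TAGLN), of smooth muscle, by 1.22 ± 0.25 (adjusted p = 0.0301, summed 0.115). The defining genes COL1A1 and ACTA2 overlapped between the groups, with 66.4, 228 and 193 CPM in albino liver, against 69.1, 125 and 96.0 CPM in wild-type liver for COL1A1. Per-library medians of the list, as log2 deviations from the mean of the 6 libraries, lay at 0.08, 0.43 and 0.44 in albino liver, against -0.57, -0.11 and -0.32 in wild-type liver. The rises numbered 8, 2 and 2 without albino 1, 2 and 3 and 4, 2 and 2 without wild-type 1, 2 and 3. In the extracellular matrix list 9 of 49 rose and 1 fell (median 0.58), with none in the summed fit. With library totals 5 rose and 1 fell (median 0.28). Of the laminins that follow, LAMA4 is the fall of this list, and LAMA1 and LAMA2 stand outside it. Laminins split, since LAMA1 rose by 1.73 ± 0.27 (adjusted p = 0.0112, summed 0.0544), LAMA2 rose by 2.57 ± 0.44 (adjusted p = 0.0171, summed 0.0724), and LAMA4, of vessel walls, had 20.9, 31.8 and 21.5 CPM in albino liver, against 61.7, 60.9 and 61.7 CPM in wild-type liver and fell by 1.31 ± 0.20 (adjusted p = 0.0110, summed 0.0569). Collagen VI (COL6A2) rose by 1.52 ± 0.28 (adjusted p = 0.0217, summed 0.0969). The matrix rises numbered 15, 0 and 2 without albino 1, 2 and 3 and 8, 0 and 0 without wild-type 1, 2 and 3. Of the stroma genes, 1 of 8 calls held without each library in turn, and calls were lost without albino 2 (5, up to 0.145, TCF21), albino 3 (5, up to 0.139, VIM), wild-type 1 (2, up to 0.0728, TCF21), wild-type 2 (7, up to 0.173, VIM) or wild-type 3 (6, up to 0.130, VIM).

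Some macrophage markers fell. Of 20 tested, 3 fell, 0 rose and 1 had a positive difference (median -0.38), with no call in the summed fit. Per-library medians of the list overlapped, at 0.05, -0.25 and -0.51 in albino liver, against 0.67, 0.06 and -0.04 in wild-type liver, as log2 deviations from the mean of the 6 libraries. Lysozyme (LYZ), which cuts bacterial walls, had 2.92, 4.66 and 4.11 CPM in albino liver, against 10.3, 12.0 and 9.37 CPM in wild-type liver and fell by 1.44 ± 0.22 (adjusted p = 0.0109, summed 0.0510). Cathepsin S (CTSS), which trims the MHC class II chaperone, had 329, 204 and 209 CPM in albino liver, against 841, 521 and 455 CPM in wild-type liver and fell by 1.29 ± 0.30 (adjusted p = 0.0444, summed 0.0988). The receptor CSF1R, which defines the lineage, had 19.9, 11.6 and 8.87 CPM in albino liver, against 21.3, 11.5 and 9.48 CPM in wild-type liver and overlapped between the groups (-0.07 ± 0.39, adjusted p = 0.944). The pan-leukocyte PTPRC overlapped as well. Lymphocyte markers had a median of -0.71 with 3 of 20 positive and none called. Endothelial markers had a median of 0.14 (-0.15 with library totals) with none called, and CDH5, which joins endothelial cells, stood at 0.11 ± 0.18 (adjusted p = 0.778). Markers of exocrine pancreas had no tested member. Macrophages also break down heme, and their part in the HMOX1 and hepcidin results was not tested. The macrophage falls numbered 3, 1 and 1 without albino 1, 2 and 3 and 2, 0 and 1 without wild-type 1, 2 and 3. Between LYZ and CTSS, 0 of 2 calls held without each library in turn, and calls were lost without albino 2 (1, up to 0.152, CTSS), albino 3 (1, up to 0.148, CTSS), wild-type 1 (1, up to 0.0580, CTSS), wild-type 2 (2, up to 0.129, CTSS) or wild-type 3 (1, up to 0.0807, CTSS).

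**Figure D5:**
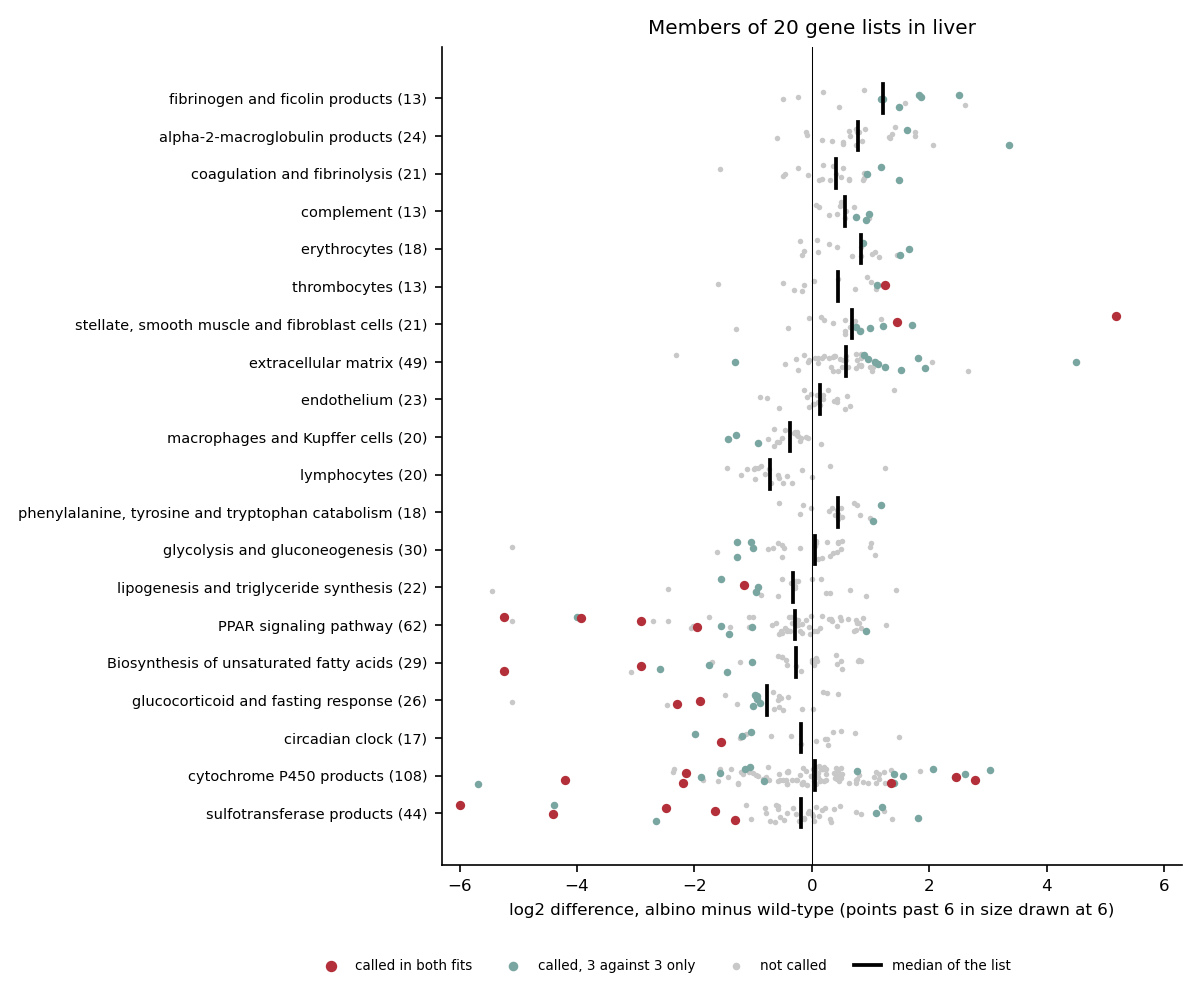
Log2 difference of albino minus wild-type liver for each tested member of 20 gene lists, with the number tested in brackets and a bar at the list's median. Members called in both fits are red, members called only with 3 libraries against 3 are green, and the medians run from 1.21 for fibrinogen and ficolin products to -0.77 for the glucocorticoid and fasting list.

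Of the 864 called genes, 43 had at most 3 counts over one of the groups, 19 near 0 in wild-type and 24 near 0 in albino liver, and 24 of the 43 held in both fits. Where a group had 0 counts its fold is a bound set by 3 counts for that group, and folds of the others are ratios with a 95% counting interval. The same genes were then read in skin and eyes of the same replicate numbers. Of the 19, 3 had the same split in skin and in eyes, with at least 36 counts in every albino and at most 1 in every wild-type library. One is the serum amyloid A-like gene LOC141111903, of an acute phase family, with 107, 35 and 61 counts in albino liver and 0 in each wild-type liver, at least 81.4-fold higher. It had 422 to 3900 counts in albino skin and 275 to 851 in albino eyes, against 0 in all wild-type libraries of both tissues. The others are the uncharacterised genes LOC141113311 (at least 79.8-fold higher in albino liver) and LOC141147690 (at least 186-fold higher).

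Other near-zero genes missed these cutoffs, some of them narrowly. LOC141131389, near 0 in wild-type liver, had 34 to 39 counts in albino skin and 35 to 70 in albino eyes. It had 0 in every wild-type library of both tissues. LOC141129775 had 147 to 246 counts in albino skin and 98 to 168 in albino eyes, and at most 4 in any wild-type library of both tissues. Others did not keep their split. The intelectin-1-like gene LOC141147786 had 0 counts in all wild-type livers, but 903 counts in skin and 198 in eyes of wild-type 3 and 0 in skin and eyes of wild-type 1 and 2. The uncharacterised LOC141103288 and LOC141103298 did the same, with 135 and 177 counts in skin of wild-type 3. These 3 genes follow the states of wild-type 2 in liver wild-type 3. A fucolectin-like gene (LOC141144076), of a family that binds fucose, had 1149, 407 and 232 counts in albino liver and 0, 1 and 1 in wild-type liver (ratio 1075, interval 297 to 8884), and at most 4 counts in any skin or eye library. Of the 24 genes near 0 in albino liver, none had the same split in both other tissues by these cutoffs, and 7 were off in skin and eyes of wild-type 3. Only 3 of these 7 were on in skin or eyes of wild-type 2. The uncharacterised LOC141104940 missed the cutoffs by 1 library, with 1, 0 and 0 counts in albino skin and 0, 2 and 0 in albino eyes. It had 165 to 442 counts in wild-type skin and 278 to 427 in wild-type eyes. The pyruvate dehydrogenase E1 beta-like gene LOC141103006 had 0 counts in each albino liver and 40, 37 and 30 in wild-type liver (at least 29.7-fold lower). It had 1 count in each albino skin library, against 128, 56 and 9 counts in wild-type skin. TPD52L1 and ACTN3, near 0 in albino liver, had counts in all 6 eye libraries, at 846 to 1999 for TPD52L1 and 2628 to 12511 for ACTN3. In skin, TPD52L1 had 2, 0 and 0 counts in albino and 348, 359 and 1 in wild-type libraries. ACTN3 had 0, 144 and 0 counts in albino skin and 601, 508 and 0 in wild-type skin. Skin of wild-type 3 was thus off for both genes, while liver wild-type 3 had 143 counts of TPD52L1 and 705 of ACTN3.

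Pigment genes gave little signal in liver. Tyrosinase (TYR), the first enzyme of melanin synthesis, was below the count filter. Of 4 tested genes of the pigment list, 1 fell and 0 rose. The member that fell was the endothelin receptor EDNRB, which pigment cell precursors use and which endothelium also carries, with 31.9, 28.3 and 27.3 CPM in albino liver, against 67.3, 58.9 and 52.7 CPM in wild-type liver and a log2 difference of -1.03 ± 0.17 (adjusted p = 0.0145, summed 0.0575). MITF, the master factor of melanocytes, had 5.32, 4.21 and 5.42 CPM in albino liver, against 3.81, 3.84 and 4.78 CPM in wild-type liver and did not pass (0.27 ± 0.21, adjusted p = 0.493). KIT overlapped between the groups as well. GCH1, which starts the synthesis of pteridines, had 7.99, 7.82 and 12.2 CPM in albino liver, against 28.6, 29.0 and 30.9 CPM in wild-type liver. It fell by 1.66 ± 0.21 (adjusted p = 0.00457, summed 0.0306), with no overlap. For EDNRB and GCH1, 1 of 2 calls held without each library in turn, and calls were lost without albino 2 (1, up to 0.0608, EDNRB), albino 3 (1, up to 0.0599, EDNRB) or wild-type 2 (1, up to 0.0796, EDNRB).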

How the data were processed

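RNA sequencing libraries of bullfrog liver, skin and eyes were used as 2 tables of the whole series. The authors deposited whole read counts per gene without normalization, and FPKM values per kilobase and per 1e6 counted reads, computed by the authors from the same counts. HISAT2 and HTSeq were used, per the submitters' processing notes, without versions. The sources used here do not give the genome build, the strandedness or how multi-mapped reads were treated. Counts of any genes with near-identical copies are therefore uncertain, and the sequences of copies were not compared. Many genes are named only by a locus number. All 24636 gene identifiers occur in a RefSeq gene table of the species, and symbols and product texts are those of the count table.

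Liver counts were fitted in R 4.3.3 with edgeR 4.0.16 (filterByExpr, TMM scaling, robust glmQLFit, two-sided glmQLFTest, Benjamini-Hochberg adjustment at 0.05), 3 libraries against 3. The SE of a log2 difference is its size over the square root of F. A second fit summed wild-type 2 and 3. Alternatives were DESeq2 1.42.0, RLE scaling, library totals, no filter, the replicate number as a block, a fit over all 18 libraries, limma 3.58.1 on log2 FPKM plus 1 or 0.1, and leaving out each library. FPKM served only for these alternatives. Albino and wild-type livers of the same number had residual correlations across genes of 0.0630, 0.0754 and 0.0416. Those of other numbers ran lower, from -0.0661 to 0.0298. All were under 0.1, the labels state no pairing, and the livers were treated as unpaired. Simulated counts with changes of known size were used to check the code, and more than the intended 5% of calls there were false.

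The 127 lists hold symbols of pathways and cell types, patterns in product texts, and KEGG pathway names given in the table, and no list was tested. The comparison, the lists and the naming rule were chosen with earlier results of these data known. Genes were named by rule: the 12 largest rises and 12 largest falls called in both fits with a log2 difference of at least 1 and a mean of at least 1 CPM, the 10 called genes of highest level in each direction, up to 4 members of smallest p in each list of symbols or products with a call, the 10 genes of highest level, and fixed markers. Further genes were added for their role after their values had been seen, and some genes that the rule selects are not reported here. Depth was 38.3 to 39.2 M counts, and intervals and floors cover counting error only.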

Additional observations from a re-analysis of the deposited data

How the results depend on the processing

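The count of called genes was 864 with 3 libraries against 3 and lay within 1.5 times of it in the fit of all 18 libraries, with RLE scaling, with library totals, without the filter, with limma on FPKM, and with the replicate block (791). It was 1853 with DESeq2 and 147 with wild-type 2 and 3 summed. With 1 library left out it ran from 134 to 1381, at 1235, 257 and 306 without albino 1, 2 and 3 and 1381, 134 and 183 without wild-type 1, 2 and 3, and 122 genes were called in all 7 fits. Leaving out any wild-type library, or summing wild-type 2 and 3, reduces the wild-type libraries to 2. Without wild-type 1, those left are the closest pair of liver libraries, at a median absolute log2 ratio of 0.213. The causes of the higher counts without albino 1 or wild-type 1 and of the lower counts in the other fits were not tested. The agreement of liver wild-type 3 with number 2 was 100% with on at 5 counts per 1e6 (9 of 9 genes) and 100% with off at 0 counts (25 of 25). Among the 143 called genes that the naming rule picked, no direction turned under any of these alternatives.

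The counts that follow cover the 143 genes picked by the naming rule and called in the main comparison. Genes added for their role are not among them, and some of the 143 are not reported here. Of the 143, 104 kept the call in the fit of all 18 libraries and 143 with DESeq2 and with RLE scaling. With library totals 115 kept it, and 105 and 108 did so with limma after adding 1 and 0.1. The count was 141 without the filter, 108 with the replicate block and 47 with wild-type 2 and 3 summed. The labels state no pairing between the genotypes, and whether libraries of the same number share an effect was not tested. Why calls were lost under the block was not tested either. With library totals, list medians close to 0 turned negative, among them those of antioxidant defence, endothelium, glycolysis, cholesterol synthesis, and heme and iron (-0.22, against 0.06). At this depth, genes under about 3 counts per group give bounds only.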

Other observations

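Signalling genes not described above were among the 147 called in both fits. The activin subunit INHBA, a secreted factor of the TGF-beta family, had 7.67, 12.4 and 8.47 CPM in albino liver, against 0.682, 0.587 and 0.475 CPM in wild-type liver and rose by 4.02 ± 0.28 (adjusted p = 0.000367, summed 0.00474). BMPR2, a receptor of the same family, had 16.2, 16.2 and 9.46 CPM in albino liver, against 46.5, 86.6 and 68.0 CPM in wild-type liver and fell by 2.26 ± 0.30 (adjusted p = 0.00635, summed 0.0340). Transforming growth factor alpha (TGFA), a ligand of the EGF receptor that drives hepatocyte growth in mammals, had 10.8, 9.36 and 8.23 CPM in albino liver, against 29.1, 41.8 and 42.8 CPM in wild-type liver and fell by 2.00 ± 0.21 (adjusted p = 0.00185, summed 0.0154). The chemokine CXCL14 had 28.1, 31.8 and 30.1 CPM in albino liver, against 7.34, 4.67 and 4.98 CPM in wild-type liver and rose by 2.40 ± 0.21 (adjusted p = 0.000888, summed 0.0111). Receptors also rose, namely the nucleotide receptor P2RY6 by 2.49 ± 0.24 (adjusted p = 0.00144, summed 0.0118), the VIP receptor VIPR2 by 2.35 ± 0.36 (adjusted p = 0.0105, summed 0.0448) and the receptor kinase TYRO3, which binds dying cells, by 1.49 ± 0.21 (adjusted p = 0.00863, summed 0.05). The phosphatase PTPRR had 9.01, 9.49 and 6.06 CPM in albino liver, against 0.682, 0.758 and 0.815 CPM in wild-type liver and rose by 3.44 ± 0.26 (adjusted p = 0.000515, summed 0.00587). An aquaporin-8-like water channel gene (LOC141113707) had 49.4, 86.7 and 72.0 CPM in albino liver, against 11.1, 7.51 and 4.23 CPM in wild-type liver and rose by 3.19 ± 0.38 (adjusted p = 0.00513, summed 0.0195). HMGA2, a chromatin protein of growing tissue, had 0.395, 0.456 and 0.347 CPM in albino liver, against 3.88, 4.26 and 3.26 CPM in wild-type liver and fell by 3.24 ± 0.29 (adjusted p = 0.00104, summed 0.00930). The related LIM proteins CSRP1 and CSRP2 moved apart, since CSRP1 stood at 1.26 ± 0.15 (adjusted p = 0.00372, summed 0.0337) and CSRP2 at -2.73 ± 0.26 (adjusted p = 0.00144, summed 0.0138). In each of these genes the albino and wild-type values did not overlap. The KEGG list of cytokine and receptor interaction, which holds INHBA, BMPR2 and CXCL14, had 6 of 148 higher and 6 lower. Over all tested genes 2.86% were higher and 2.9% lower, so these counts lie near the background. The list had 2 higher and 2 lower in the summed fit and 4 higher and 15 lower with library totals. For the genes named here, 10 of 12 calls held without each library in turn, and calls were lost without wild-type 2 (2, up to 0.0756, VIPR2). All 12 were drawn from the 147, which had already kept their call in the summed fit. Over the whole table, 122 of the 864 calls held without each library in turn.

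Vitellogenin, the yolk precursor that estrogen switches on in the liver of egg-laying vertebrates, varied widely within both groups. The labels give no sex. The vitellogenin-A2-like gene LOC141103726 had 329.7, 103 and 44.0 CPM in albino liver, against 0.518, 20.4 and 5.93 CPM in wild-type liver. LOC141103727, with the same product name, had 262, 73.5 and 26.4 CPM in albino liver, against 0.659, 24.3 and 5.41 CPM in wild-type liver. Neither passed (adjusted p = 0.219 and 0.289), although all albino values lay above all wild-type values. The vitellogenin-1-like gene LOC141103740 had 27.1, 10.6 and 15.4 CPM in albino liver, against 4.42, 48.6 and 24.8 CPM in wild-type liver and overlapped. The vitellogenin genes, and signalling genes outside the naming rule, were chosen after their values had been seen.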
